A study of Mus musculus with 36 samples.

Results

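The apolipoproteins described here are 10 of the 19750 genes named on a whole-mouse genome microarray, namely Apoa1, Apoa2, Apoa4, Apoa5, Apob, Apoc1, Apoc2, Apoc3, Apoe and Apom, measured in the liver by 15 of its 41174 distinct probes. The members were chosen by gene name, and the interest in them came from these data: Apob had been seen to be lower after 12 weeks. All 15 probes are among the 21781 probes of the table of processed values that the authors deposited. Liver RNA of 36 adult male C57BL/6J mice (C57BL/6JOlaHsd in the study's methods) was hybridised, with 12 mice in each of 3 groups. All mice first ate a mild-high-fat diet with 30 energy percent fat during an adaptation phase of 3 weeks by the sample descriptions, while the study's methods give a shorter one. The baseline group (t=0) was killed at its end, the control group (HF) ate the same diet for a further 12 weeks, and the quercetin group (HF-Q) ate it for 12 weeks with 0.33% (w/w) of the plant flavonoid quercetin. All mice were fasted for at least 2 h beforehand. Each array holds the Cy5-labelled RNA of a single mouse and a Cy3-labelled reference pool made from all the livers. Values are log2 values of the Cy5 signal normalised against the pool, and differences between groups are on the log2 scale, and values of different probes are not compared with each other. The baseline mice differ from both later groups in age, time on the diet and day of killing, and these cannot be told apart.

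Apolipoproteins are the protein part of lipoproteins, the particles that carry triglyceride and cholesterol through the blood, and the liver makes most of them. Apob is the structural protein of very low density and low density lipoproteins and stays with a particle from its assembly to its uptake. Apoa1 and Apoa2 are the main proteins of high density lipoproteins, while the small exchangeable proteins Apoc1, Apoc2 and Apoc3 control how fast lipoprotein lipase empties the particles. Apoa5 raises that lipolysis, Apoe binds the receptors that clear remnants, Apoa4 is tied to triglyceride export by liver and intestine, and Apom carries sphingosine-1-phosphate on high density lipoproteins. Several of the genes are neighbours: the probes of Apoa1, Apoc3, Apoa4 and Apoa5 lie on chromosome 9, and those of Apoe, Apoc1 and Apoc2 on chromosome 7.

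The promoters of 8 of the 10 genes were found in the RefSeq table of build GRCm38.p6, as windows of 300 bases that run from 250 before a transcription start to 50 after it. The window of Apob is shown because the results turn on this gene. That of Apoa5 is shown because both its probes gave an unadjusted p below 0.05 between the quercetin and the control group. Both windows are on the plus strand, the first at chr12:7977427-7977726 and the second at chr9:46268358-46268657. Capitals mark TATAAA, the TATA box, and CACGTG, an E-box.
Apob: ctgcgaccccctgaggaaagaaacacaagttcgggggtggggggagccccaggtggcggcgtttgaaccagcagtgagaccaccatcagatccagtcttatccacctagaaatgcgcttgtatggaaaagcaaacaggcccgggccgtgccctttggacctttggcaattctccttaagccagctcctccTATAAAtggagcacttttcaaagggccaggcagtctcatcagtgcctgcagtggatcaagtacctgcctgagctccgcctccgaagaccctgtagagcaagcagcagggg
Apoa5: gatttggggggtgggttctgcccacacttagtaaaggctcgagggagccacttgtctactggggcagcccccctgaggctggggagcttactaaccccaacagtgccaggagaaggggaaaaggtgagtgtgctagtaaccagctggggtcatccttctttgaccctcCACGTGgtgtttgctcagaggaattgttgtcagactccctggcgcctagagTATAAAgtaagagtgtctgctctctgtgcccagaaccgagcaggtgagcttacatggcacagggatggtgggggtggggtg
Each window holds 1 TATAAA on its own strand, at -60 from the annotated start in Apob and at -31 in Apoa5, and the Apoa5 window also holds 1 CACGTG, at -82. Of all 32851 promoters in the table, 13.6% hold TATAAA on either strand and 7.15% hold CACGTG, which reads the same on both strands. Neither window holds AGGTCA, the nuclear receptor half-site found in 16.3% of promoters, or CAAAGTCCA, an Hnf4 motif found in 0.475%. These matches describe letters only.

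Some arrays and spots set limits on what follows. The livers carried the 6 hepatocyte markers looked for, and the summed level of these markers lay between 20.12 and 20.88 in every mouse. Control replicate 5 also carried transcripts of the exocrine pancreas, such as Cpa1 (a digestive carboxypeptidase) at 20.27 against 9.99 to 10.71 in the other 35 mice, and all 5 pancreas markers were far above the others in this library. It had the lowest value of the 12 control mice for 12 of the 15 apolipoprotein probes. Quercetin replicate 2 had 96.7% of its spots well above background in Cy5, against 56.4% to 67.4% on the other arrays. Control replicate 1 was the highest of the control mice at the probes of Apoa2, Apoc2 and Apoc3 and at 1 of the 2 Apoa5 probes. Values without these libraries stand beside the results they moved most. The Apoc1 spot was saturated in Cy5 on all 36 arrays, so that no difference is given for this gene. The Apoe probe is spotted 10 times, and 60 of 120 Apoe spots were saturated in Cy5 in the baseline group, 92 in the control group and 103 in the quercetin group. No other apolipoprotein spot was saturated.

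The first question was whether quercetin changed the apolipoprotein transcripts at 12 weeks. None of the 15 probes passed an adjusted p of 0.05 between the quercetin and the control group (limma, Benjamini-Hochberg over 21781 probes), where 2.36% of all probes did. 4 probes of 3 genes had an unadjusted p below 0.05, where 15.4% of all probes did: 1 of Apob and both of Apoa5 were higher in the quercetin group (8.85% of all probes were), and that of Apoa4 was lower (6.57%). The Apob probe among these 4 shares the control arrays that led to the gene, so its p is not read as support. The median difference over the 15 probes was -0.03 on the log2 scale, against 0.01 over all probes. In this bulk tissue, fewer cells of a type and less RNA per cell cannot be told apart.

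**Figure D1:**
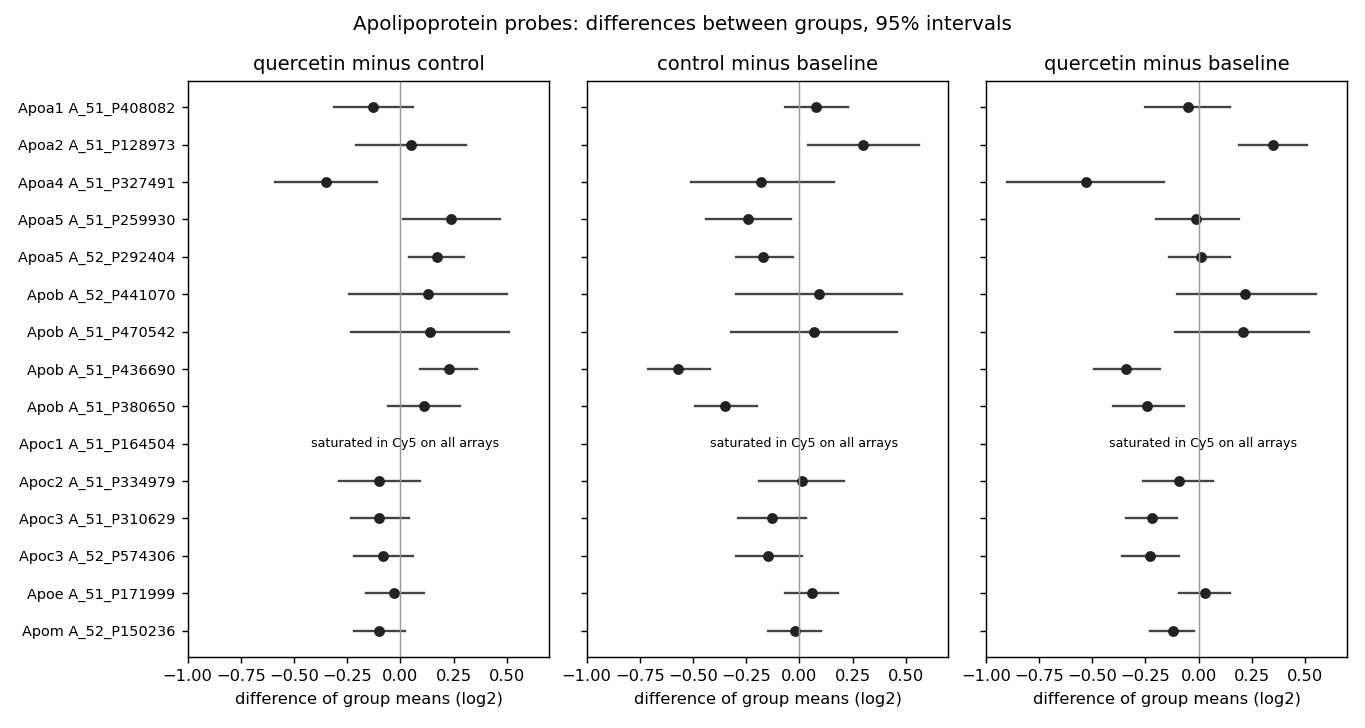
Differences of group means on the log2 scale (x axis) with 95% intervals for the apolipoprotein probes (rows) in the 3 comparisons (panels), 12 mice per group. The Apob probe A_51_P436690 lies furthest below 0 in control minus baseline, at -0.57, while the Apob probe A_52_P441070 lies at 0.09, and Apoc1 is not drawn because its spot was saturated.

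Apob is measured by 4 probes, and these did not move alike. Positions in the array files are those of mouse build mm8, and all 4 lie on chromosome 12, plus strand. Probe A_52_P441070, the brightest and the one reported for the gene, lies furthest towards the 3' end, at chr12:8042396-8042455. Probe A_51_P470542 is directly beside it, at chr12:8042336-8042395, and the deviations of the 2 probes from their group means correlated at 0.99 over the 36 mice. These 2 probes are therefore close to a single reading. Probe A_51_P380650 begins 4453 bases upstream of the 3'-most probe, at chr12:8037943-8038002. Probe A_51_P436690, designed on the cDNA BC038263, begins 17712 bases upstream, and its 2 ends are placed at chr12:8024684-8026893, so that it spans an intron. The deviations of the 2 upstream probes correlated at 0.71. With the 3'-most probe the values were 0.52 for A_51_P380650 and 0.21 for A_51_P436690.

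At the upstream probe A_51_P436690, Apob lay between 12.43 and 12.99 with a median of 12.59 in the baseline group. It lay between 11.82 and 12.34 with a median of 12.08 in the control group, and between 12.00 and 12.61 with a median of 12.33 in the quercetin group. Every control mouse was below every baseline mouse, while the quercetin group overlapped with both, with 9 of its 12 mice below the lowest baseline mouse. The means were 12.66 ± 0.19 (SD, n = 12), 12.10 ± 0.13 (SD, n = 12) and 12.32 ± 0.18 (SD, n = 12). The control group was thus 32.4% lower than the baseline group (log2 difference -0.57, standard error 0.07), and the quercetin group 20.9% lower (log2 difference -0.34, standard error 0.07). Both comparisons use the same baseline arrays, and this fall is what chose the gene, so that it stands as a description. Within the 9 slides, each of which holds mice of all groups, the control mice were lower by 0.37 to 0.86. That they were lower on every slide follows from the groups not overlapping and is no separate check.

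At probe A_51_P380650, Apob lay between 11.68 and 12.14 in the baseline group, between 11.08 and 11.71 in the control group and between 11.27 and 11.99 in the quercetin group. Of the control mice, 10 of 12 were below the lowest baseline mouse, and of the quercetin-fed mice 7 of 12 were. The differences from baseline were -0.35 (standard error 0.07) and -0.24 (standard error 0.08) on the log2 scale.

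At the 3' end the picture was another one. Probe A_52_P441070 lay between 15.20 and 16.51 with a median of 15.78 in the baseline group. It lay between 14.48 and 16.44 with a median of 15.98 in the control group, and between 15.33 and 16.59 with a median of 16.01 in the quercetin group. The 3 groups overlapped almost wholly. The control group differed from baseline by 0.09 (95% interval -0.30 to 0.48) and the quercetin group by 0.22 (95% interval -0.10 to 0.55), and the neighbouring probe A_51_P470542 gave 0.07 and 0.21. The lowest control value of the 3'-most Apob probe belonged to control replicate 5, and without it the control difference from baseline became 0.22 (standard error 0.15). The spread between mice of 1 group was also wider here, with a pooled SD of 0.468 and 0.464 at the 2 probes of the 3' end against 0.170 and 0.191 at the 2 upstream probes.

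**Figure D2:**
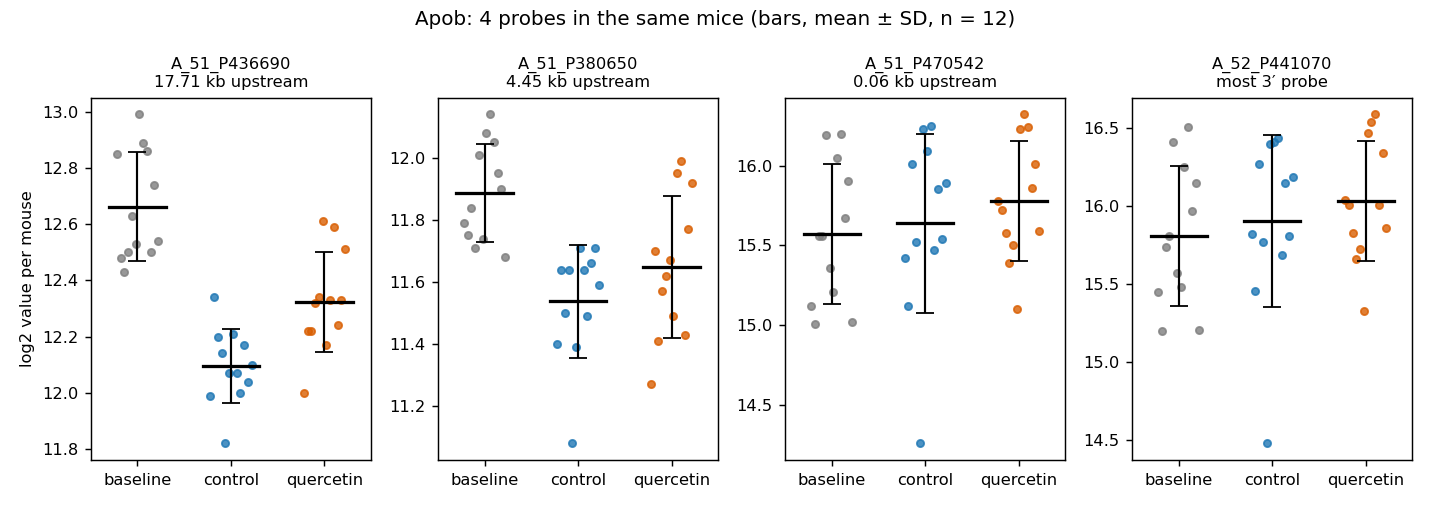
Log2 value per mouse (y axis, own scale in each panel) at the 4 Apob probes, ordered from upstream to 3' end, with the mean and SD of each group of 12. At the upstream probe the control mice, up to 12.34, all lie below the baseline mice, from 12.43, whereas at the 3'-most probe the groups overlap and control replicate 5 is the lowest point at 14.48.

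The 2 readings of Apob could be set against each other within each mouse. The log2 value of the upstream probe A_51_P436690 minus that of the 3'-most probe averaged -3.15 ± 0.43 at baseline, -3.81 ± 0.50 for controls and -3.71 ± 0.45 with quercetin (SD, n = 12 each). Only the change in this difference between groups can be read, since the 2 probes differ in brightness. Without control replicate 5 the control mean was -3.92 ± 0.36 (SD, n = 11). The lower Apob after 12 weeks was thus seen at the 2 upstream probes and not at the 2 probes of the 3' end.

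**Figure D3:**
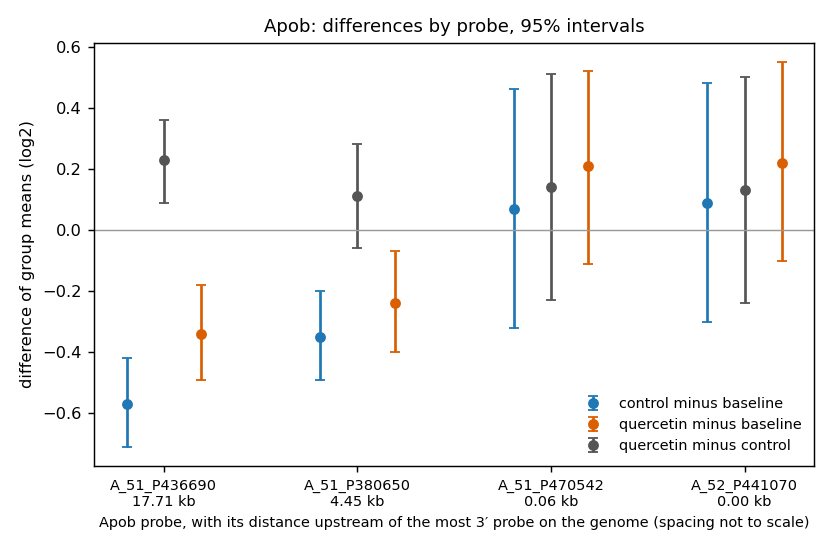
Log2 differences between groups (y axis) with 95% intervals at the 4 Apob probes, labelled by distance upstream of the 3'-most probe. Both differences from baseline are below 0 at the 2 upstream probes and above 0 at the 2 probes of the 3' end, where each interval spans 0.

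The comparison between the quercetin and the control group shares the 12 control arrays whose low values led to Apob, so that it too is given for this gene as a description. The upstream probe A_51_P436690 was 17.0% higher with quercetin (log2 difference 0.23, standard error 0.06). The values of 11 of 12 quercetin-fed mice exceeded the control median, 4 of them exceeded the highest control mouse, and the quercetin mice were higher on 8 of 9 slides. Over 20 other settings this difference ranged from 0.13 to 0.27. The other Apob probes gave differences of 0.11, 0.14 and 0.13. Without control replicate 5 the difference at the 3'-most Apob probe was -0.002 (standard error 0.14), at the neighbouring probe it was 0.02 (standard error 0.14), and the upstream Apob probe gave 0.20.

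A measure that moved along with this comparison was Arntl, a core gene of the circadian clock. Arntl averaged 8.78 ± 0.46 (SD, n = 12) for controls and 7.78 ± 0.53 (SD, n = 12) with quercetin (adjusted p = 0.0034, limma). With the Arntl level as a covariate, the quercetin difference was 0.13 at the upstream Apob probe (standard error 0.09), -0.16 for Apoa4 (standard error 0.16), and 0.30 and 0.16 at the 2 Apoa5 probes (standard errors 0.16 and 0.09). Over all probes this fit left 1 call of the 513, and its standard errors were wider, against 0.06 for the upstream Apob probe and 0.12 for Apoa4 without the covariate. Since Arntl itself differed between the diets, Arntl and the diet cannot be told apart in this fit. The part of the clock in these differences was not tested.

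Apoa4 (chr9:45992573-45993316, NM_007468) lay between 10.82 and 12.63 with a median of 11.72 in the baseline group. It lay between 11.14 and 11.85 with a median of 11.40 in the control group and between 10.63 and 11.70 with a median of 11.08 in the quercetin group. The control mice were the least spread and the quercetin-fed mice reached lowest, with 7 of 12 below the lowest control mouse. Apoa4 was 21.4% lower in the quercetin than in the control group (log2 difference -0.35, standard error 0.12, 95% interval -0.59 to -0.11, adjusted p = 0.124, limma). It did not pass the threshold, except with array weights (-0.40, adjusted p = 0.0353, limma), was -0.20 in the Cy5 channel alone, and on 7 of 9 slides the quercetin mice were lower. Against baseline the quercetin group was lower by 0.53 (standard error 0.18) on the log2 scale and the control group by 0.18 (standard error 0.16).

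Apoa5 has 2 probes on chromosome 9 (NM_080434), and at both its mean was higher with quercetin than in the control group. Probe A_51_P259930 (chr9:46021994-46022053) lay between 16.67 and 17.35 in the baseline group, between 16.51 and 17.56 in the control group and between 16.70 and 17.58 in the quercetin group. Probe A_52_P292404 (chr9:46021491-46021550) lay between 14.94 and 15.49, between 14.83 and 15.21 and between 14.94 and 15.52 in the same order. At both probes the groups overlapped, the control group had the lowest mean, and the baseline and quercetin means were the same to within 0.01. The quercetin minus control difference was 0.24 (95% interval 0.01 to 0.47, adjusted p = 0.293, limma) at the first Apoa5 probe and 0.17 (95% interval 0.04 to 0.30, adjusted p = 0.159, limma) at the second. The control minus baseline differences of Apoa5, as a description, were -0.24 (standard error 0.10) and -0.17 (standard error 0.06), and the control mice were lower on 9 and 8 of 9 slides.

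Of the high density lipoprotein proteins, Apoa1 showed small differences, and the mean of Apoa2 was higher in both later groups on the authors' values. Apoa1 (chr9:45980833-45980892) is spotted 10 times on each array, and its spots differed with an SD of 0.031 within an array against 0.219 between mice of a group, so that the error of a spot is small beside the spread of the mice. Apoa1 was 17.53 ± 0.21, 17.61 ± 0.15 and 17.48 ± 0.28 (SD, n = 12 each) in the baseline, control and quercetin group. The quercetin minus control difference of Apoa1 was -0.13 (95% interval -0.31 to 0.06, adjusted p = 0.503, limma), and without quercetin replicate 2, the lowest of all mice at 16.75, it was -0.06 (adjusted p = 0.751, limma). Relative to baseline the quercetin group gave -0.05 with this library and 0.02 without it.

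Apoa2 (chr1:173062402-173062461) lay between 17.92 and 18.47 with a median of 18.09 in the baseline group. It lay between 17.81 and 19.49 with a median of 18.42 in the control group and between 18.20 and 18.79 with a median of 18.50 in the quercetin group. The groups overlapped, with 6 of 12 mice of each later group above the highest baseline mouse. The highest control value of Apoa2, 19.49, was that of replicate 1, and the other 11 control mice reached 18.67. Without it Apoa2 in the control group was 0.21 above baseline. Relative to baseline Apoa2 was 27.4% higher in the quercetin group (log2 difference 0.35, standard error 0.08), with 12 of 12 mice above the baseline median, and 23.3% higher in the control group (log2 difference 0.30, standard error 0.13), with 11 of 12. In the Cy5 channel alone both differences of Apoa2 were smaller, 0.11 (standard error 0.07) and 0.04 (standard error 0.07). The 2 later groups differed by 0.05 (95% interval -0.21 to 0.31), and without control replicate 1 by 0.14 (standard error 0.09).

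**Figure D4:**
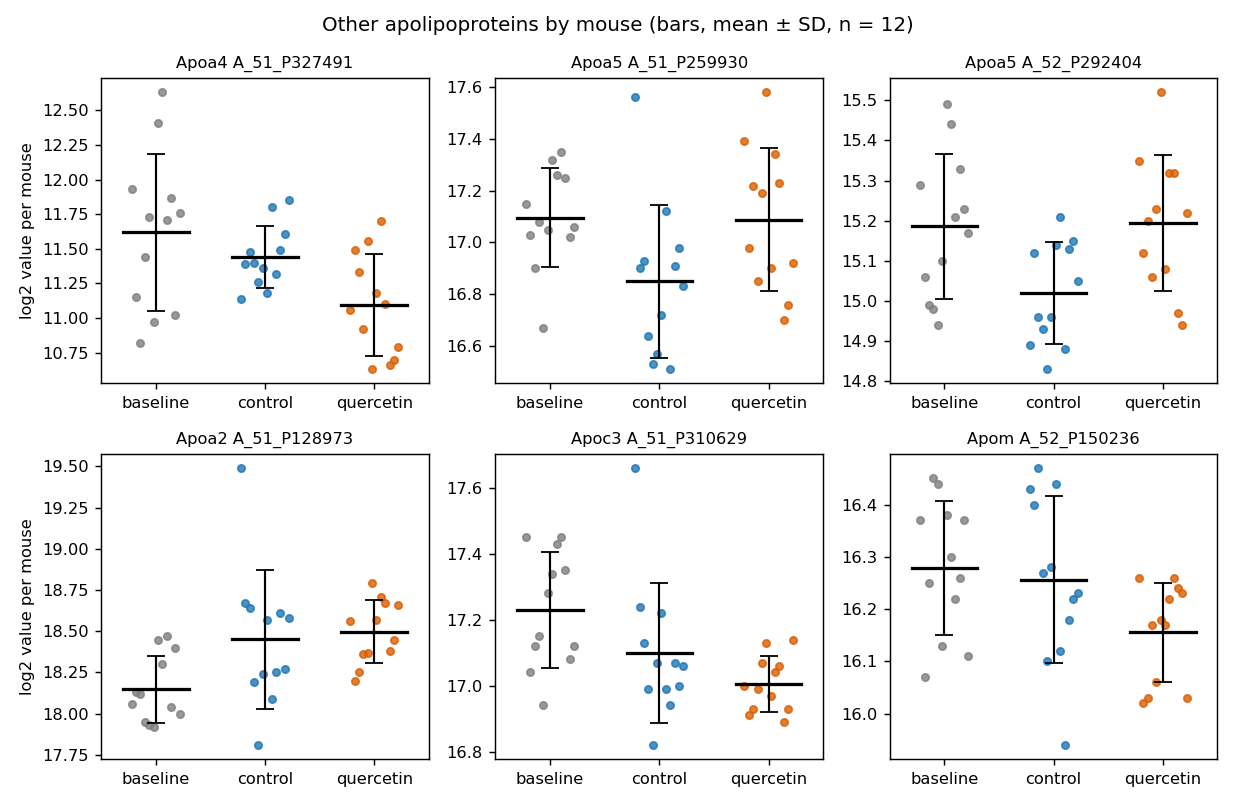
Log2 value per mouse (y axis, own scale in each panel) of Apoa4, both Apoa5 probes, Apoa2, Apoc3 and Apom in the 3 groups of 12 mice, with mean and SD. The quercetin-fed mice reach the lowest Apoa4 values, down to 10.63, the control mice have the lowest Apoa5 means, and 1 control mouse stands apart for Apoa2 at 19.49.

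Among the regulators of lipolysis, Apoc3, an inhibitor of lipoprotein lipase, was lower after 12 weeks with quercetin than at baseline. Its 2 probes, at chr9:45984265-45984324 and chr9:45984275-45984334, overlap in sequence and are not separate readings. At the reported probe Apoc3 lay between 16.94 and 17.45 with a median of 17.21 in the baseline group. It lay between 16.82 and 17.66 with a median of 17.07 in the control group and between 16.89 and 17.14 with a median of 16.99 in the quercetin group. The quercetin-fed mice were the least spread, with an SD of 0.08, and 12 of 12 lay below the baseline median. The quercetin group differed from baseline by -0.22 (standard error 0.06) and the control group by -0.13 (standard error 0.08), whereas in the Cy5 channel alone the quercetin difference of Apoc3 was 0.003. Quercetin minus control was -0.10 (95% interval -0.23 to 0.04, adjusted p = 0.501, limma), and -0.04 without control replicate 1.

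Apoc2, the activator of lipoprotein lipase (chr7:18830090-18830114), was 16.51 ± 0.21, 16.52 ± 0.28 and 16.42 ± 0.19 (SD, n = 12 each) in the baseline, control and quercetin group. Its quercetin minus control difference was -0.10 (95% interval -0.29 to 0.09, adjusted p = 0.619, limma), and -0.05 without control replicate 1. Apom (chr17:34738158-34738217) had the smallest spread of all members, with a pooled SD of 0.131. Apom was 16.28 ± 0.13 at baseline, 16.26 ± 0.16 in the control group and 16.16 ± 0.10 in the quercetin group (SD, n = 12 each). For Apom, 10 of 12 mice on quercetin were below the median of the controls (log2 difference -0.10, 95% interval -0.22 to 0.02, adjusted p = 0.400, limma), and 12 of 12 were below the baseline median. In the Cy5 channel alone the quercetin minus control difference of Apom was -0.01.

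Apoe (chr7:18854905-18854964) was 19.16 ± 0.12, 19.22 ± 0.17 and 19.19 ± 0.14 (SD, n = 12 each) in the baseline, control and quercetin group. Its 10 spots differed with an SD of 0.138 within an array, about as much as the mice of a group, at 0.145. Most Apoe spots were saturated at 12 weeks. Relative to baseline the differences were 0.06 for control and 0.03 for quercetin over all spots, and over unsaturated spots alone they were 0.17 (standard error 0.07) and 0.20 (standard error 0.10). With 60 of 120 spots saturated at baseline against 92 and 103 in the later groups, the unsaturated spots were not the same ones in each group. In these last values the choice of spots and a change of Apoe cannot be told apart.

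Against baseline, 3 of the 15 probes were called in the control group, where 21.3% of all probes were (10.4% lower, 10.9% higher), and 5 in the quercetin group, where 11.9% were (5.3% lower, 6.62% higher). The called probes were 2 of Apob (lower) and the saturated one of Apoc1 in the control group, and 2 of Apob (lower), 2 of Apoc3 (lower) and 1 of Apoa2 (higher) in the quercetin group. These contrasts gave the lead on Apob, and the members were chosen with earlier results known, so nothing is read from the counts. Groups that did not overlap were found for 1 member probe, the upstream Apob probe in the control group, where 0.363% of all probes lay below baseline without overlap.

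Some pairs of members also varied together between mice of a group. Pairs of other genes were not computed for comparison, so this is not given as a trait of the members. Over the 45 pairs of the 10 reported probes, those of the saturated Apoc1 and the partly saturated Apoe included, the correlation of deviations from the group means over 36 mice ranged from -0.09 to 0.76 with a median of 0.26, and 7 pairs exceeded 0.5. The highest values were 0.76 for Apoa2 with Apoc3, 0.69 for Apoa5 with Apoc3, 0.63 for Apoa2 with Apoa5 and 0.62 for Apoc2 with Apoc3. Apob at its 3'-most probe stayed at or below 0.38 with all others. The upstream Apob probe A_51_P436690 gave 0.45 with Apoc3, 0.44 with Apoa2 and 0.40 with Apoc2, but 0.26 with Apoa5 and 0.13 with Apoc1. With the second probes of Apoc3 and Apoa5 the upstream Apob probe gave 0.58 and 0.57. Control replicates 1 and 5 bear on several of these values. Without them (34 mice) the median was 0.22 and 4 pairs exceeded 0.5, among them Apoa2 with Apoc3 at 0.54 and Apoa5 with Apoc3 at 0.54, while Apoa2 with Apoc2 went from 0.52 to 0.17 and Apoa4 with Apoc2 from 0.49 to 0.66. The points share their arrays and the common pool, so these values are given as a description.

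**Figure D5:**
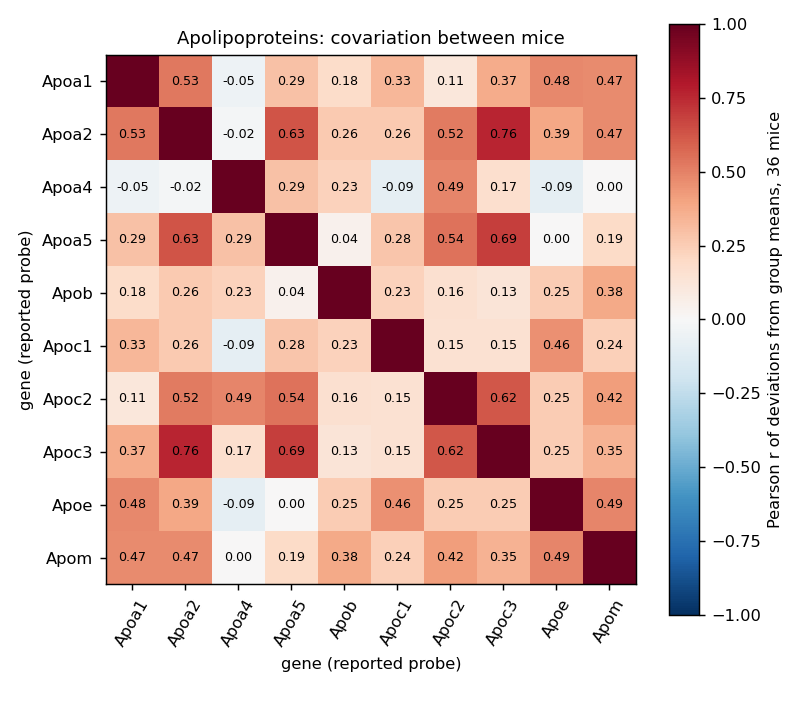
Pearson correlation between the reported probes of the 10 genes, computed on deviations from the group means over 36 mice. Apoa2, Apoa5, Apoc2 and Apoc3 form the block of high values, from 0.52 to 0.76 (0.17 to 0.54 without control replicates 1 and 5), and Apoa4 is near 0 with Apoa1, Apoa2 and Apom.

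Among all probes of the table, the 5 genes whose deviations were most like those of the 3'-most Apob probe included Raly (0.78), Emd (0.75), Elf2 (0.73) and Dus4l (0.70). For the upstream Apob probe they were other genes, Syf2 (0.76), Dnajc19 (0.74), Spcs1 (0.73), Mrpl35 (0.72) and Crebl2 (0.72), over the same 36 mice. These are the highest values among many probes, so they are given as a description. They were not recomputed without control replicate 5, the lowest control mouse at both Apob probes.

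The other genes of lipoprotein metabolism were followed through 7 lists with 67 genes, of which 64 were in the table. Between the quercetin and the control group 4 of the 64 passed the test, 3 higher and 1 lower, which is 6.25% against 2.36% of all probes. The median difference was 0.00 over the lists and 0.01 over all probes. 3 of the 4 are among the 10 genes of particle assembly and secretion. Mia2, which helps to load large cargo at the exit sites of the endoplasmic reticulum, averaged 11.76 ± 0.22 for controls and 12.18 ± 0.26 with quercetin (SD, n = 12 each; log2 difference 0.42, standard error 0.09, adjusted p = 0.0159, limma). Fitm2, which takes part in the formation of lipid droplets, rose by 0.32 (adjusted p = 0.0389, limma), with all 12 mice above the median of the controls. Sort1, a sorting receptor that binds Apob in the secretory pathway, fell by 0.39 (adjusted p = 0.0314, limma), with 10 of 12 below it. Both calls lay close to the threshold. Fitm2 gave 0.30 without control replicate 5 (adjusted p = 0.0535, limma) and 0.31 without quercetin replicate 2 (adjusted p = 0.0584, limma), and Sort1 gave -0.38 without the latter (adjusted p = 0.0519, limma). With slide as a block Mia2 still passed (0.42, adjusted p = 0.0345, limma), while Fitm2 (0.33, adjusted p = 0.0912, limma) and Sort1 (-0.36, adjusted p = 0.13, limma) did not.

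The other called gene was the receptor Vldlr, which averaged 7.48 ± 0.38 for controls and 8.08 ± 0.31 with quercetin (SD, n = 12 each). Every one of the 12 mice on quercetin exceeded the median of Vldlr in the controls (log2 difference 0.60, standard error 0.13, adjusted p = 0.013, limma), and its second probe gave 0.37 (adjusted p = 0.0907, limma). With slide as a block the reported Vldlr probe gave 0.60 (adjusted p = 0.0566, limma). Second probes did not pass either for Fitm2 (0.07), for Sort1 (-0.23 to -0.13 over 3 probes) or for Mia2 (-0.16 to 0.28 over 3 probes). In contrast, Mia3, a partner of Mia2 in the same step, did not pass at its reported probe (0.07) and passed at its 2 others (0.45, adjusted p = 0.00151, and 0.31, adjusted p = 0.0168, limma).

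Of the genes that act directly on Apob or on lipoprotein particles, the following did not pass between the diets. Mttp, the transfer protein that puts lipid onto nascent Apob, differed by -0.01 (adjusted p = 0.976, limma). Apobec1, the enzyme that edits the Apob transcript, was 0.22 higher (adjusted p = 0.327, limma), and none of the 4 genes of Apob mRNA editing passed in any of the 3 comparisons by limma, with 1 of 4 at an unadjusted p below 0.05 between quercetin and control. Scarb1, the receptor for high density lipoproteins, differed by -0.13 (adjusted p = 0.365, limma). The plasma enzymes and transfer proteins Lcat (0.13), Lipc (0.01) and Pltp (0.02) did not pass, nor did the regulators Hnf4a (0.13) and Creb3l3 (0.17).

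From baseline to 12 weeks on the control diet, 12 of the 64 genes passed, 7 higher and 5 lower, which is 18.8% against 21.3% of all probes, and 10 of the 12 are described here. Angptl8, an inhibitor of lipoprotein lipase, rose from 12.15 ± 0.38 to 13.26 ± 0.66 (SD, n = 12 each), higher than the baseline median in 12 of 12 mice (adjusted p = 0.000364, limma). Angptl4, another inhibitor, fell by 0.63 (adjusted p = 0.0477, limma), while Lpl itself rose by 0.48 (adjusted p = 0.00416, limma) and Gpihbp1, its anchor on endothelial cells, by 0.21 (adjusted p = 0.0165, limma). Lsr, a receptor for lipoproteins rich in triglyceride, rose by 0.39 (adjusted p = 4.66e-05, limma). Surf4, a cargo receptor for lipoprotein export, rose by 0.36 (adjusted p = 0.000179, limma), as did the sterol exporter Abcg1 by 0.35 (adjusted p = 0.00452, limma). Mia2 fell by 0.76 (adjusted p = 3.72e-06, limma), and the coactivators Ppargc1a and Ppargc1b fell by 0.43 and 0.62 (adjusted p = 0.0447 and 0.0072, limma). Without control replicate 5, Angptl4 (-0.51, adjusted p = 0.0744, limma) and Ppargc1a (-0.42, adjusted p = 0.0566, limma) no longer passed, nor did Ppargc1a without control replicate 1 (-0.43, adjusted p = 0.051, limma), and with slide as a block Gpihbp1 and Ppargc1a did not (adjusted p = 0.0655 and 0.118, limma). Of the 3 other Mia2 probes 1 fell too, by 1.02 (adjusted p = 0.000143, limma), and the remaining ones gave -0.02 and -0.01. The second probe of Surf4 did not pass (0.11, adjusted p = 0.289, limma). Mia3 did not pass at its reported probe (0.20, adjusted p = 0.0558, limma). Its 2 other probes were lower (-0.40, adjusted p = 0.000687, and -0.29, adjusted p = 0.0124, limma).

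In the quercetin group 9 of the 64 genes differed from the same baseline arrays, 6 higher and 3 lower, which is 14.1% against 11.9% of all probes. The lists use the reported probe of each gene, while these shares are over all probes. In the brighter part of the table, 2115 of 10890 probes were called in this comparison. There 2864 were called for control against baseline and 366 between the diets. Of the 9 genes in the quercetin group, 7 are described here. Vldlr rose by 0.68 (adjusted p = 0.000272, limma), and its second probe rose by 0.40 (adjusted p = 0.000981, limma). Surf4 (0.29), Mia3 (0.27), Lsr (0.25) and the paraoxonase Pon3 (0.25), an enzyme of high density lipoproteins, were also higher. However, the second probe of Surf4 (0.08) and the other probes of Mia3 (0.04 and 0.02) did not pass. With slide as a block Pon3 missed the threshold (adjusted p = 0.0855, limma). Mia2 (-0.35) and Clu (-0.24), a chaperone that travels on high density lipoproteins, were lower. Of the other Mia2 probes 1 was lower too (-0.75, adjusted p = 0.00898, limma), and the remaining ones did not pass (-0.18 and 0.02). Sort1 did not pass at its reported probe (-0.21, adjusted p = 0.235, limma). Its other probes passed at -0.34, -0.30 and -0.33 (adjusted p = 0.01, 0.0252 and 0.0123, limma). Some cell type markers moved in these comparisons too. Over all probes 21.3% (control) and 11.9% (quercetin) were called against baseline, and 2.36% between the diets. Of the cholangiocyte markers, 3 of 4 were higher in the control group than at baseline and 1 of 4 was lower with quercetin than in the control group, with summed levels of 9.87 to 10.59 at baseline, 10.51 to 11.20 in the control group and 10.11 to 10.57 in the quercetin group. Of the hepatocyte markers 2 of 6 were lower in each later group than at baseline. The erythroid marker Hba-a1 was higher in the control group (0.93) and the quercetin group (1.21), and Alas2 was lower in the latter (-0.26). The endothelial marker Pecam1 was lower (-0.34) and Cdh5 higher (0.20) in the control group. Pecam1 was higher with quercetin than in the control group (0.38). The lymphocyte marker Ms4a1 was higher in both later groups (0.34 and 0.46). The part of these cell types in the differences above was not tested.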

How the data were processed

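Liver RNA of 36 mice was hybridised against a reference pool on 36 two-colour Agilent arrays, on 9 slides of 4. Per the file headers, Feature Extraction (10.5.1.1 in the submitters' processing notes) measured the spot intensity of both channels. The log2 values deposited by the authors, used as the main values, cover 23256 of 43379 spots. By the study's methods, spots sufficiently above background were log transformed and Cy5 was normalised to Cy3 by a procedure named only by citation. The values equalled the log2 Cy5 signal minus log2 Cy3 plus the mean log2 Cy3, computed from the scanner medians, to a median absolute difference of 0.0199, and all columns have a median of 8.96. Spots of a probe were averaged. Groups were taken from the sample descriptions and compared with limma 3.58.1 (lmFit, eBayes, two-sided, 24 arrays each, Benjamini-Hochberg over 21781 probes, adjusted p below 0.05). P-values set a difference of group means against the spread between mice of a group, which includes the error of each mouse's single array. The number of arrays limits the precision.

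The reported probe of a gene was that with the fewest saturated arrays, then the highest mean. Genes named are the members, the called genes of 7 lipoprotein lists and 10 of their genes fixed by name. Some of these are not reported here, and counts over the lists include them. Pearson correlations used deviations from group means. The members and lists were chosen with earlier results of these data known. Probes were named through their accession (24375 of 41174), a current symbol (6301) or a synonym (2426), and 8072 stayed without one.

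Alternatives used loess ratios of the scanner intensities (normexp, offset 50, with and without scale normalization, or without background correction), Feature Extraction's processed signals, Cy5 alone, median centring, quantile normalization, the brighter part of the table, unsaturated spots, all arrays in one fit, slide, array position, Arntl or replicate number as a term, array weights and the methods' t-test. Leaving out control replicate 1 or 5 was chosen after seeing the data. The procedure was tested on simulated data. R 4.3.3, Python 3.11.15 and matplotlib 3.10.9 were used. Probe sequences and protein sequences were not analysed here.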

Additional observations from a re-analysis of the deposited data

How the results depend on the processing

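Of the 15 apolipoprotein probes, 1 passed between quercetin and control with loess ratios, with or without scaling or background correction, with Feature Extraction's signals, quantile normalization and the brighter part of the table (the upstream Apob probe in each) and with array weights (Apoa4), and 0 under the other settings. Since this comparison shares the control arrays that led to Apob, the calls at the upstream Apob probe are a description and no support for a change. The Apob difference from baseline at the reported probe, 0.09 and 0.22, became -0.57 and -0.34 (control and quercetin) at probe A_51_P436690, and the Apob quercetin minus control difference, 0.13 without quercetin replicate 2, became -0.002 without control replicate 5. Against baseline, the 3 member probes called in the control group became 6 with loess ratios in all 3 forms, 8 with Feature Extraction's signals, 7 with quantile normalization, 5 with array weights and 6 without control replicate 1, and the 5 in the quercetin group became 2 with Cy5 alone. Of the lipoprotein lists, 4 genes were called between quercetin and control. They became 0 with scaled loess ratios, Cy5 alone or Arntl as a covariate, and 1 with slide as a block. With the methods' t-test or without quercetin replicate 2 they became 2. The brighter part of the table also gave 2, but the dim reported probes of Vldlr and Sort1 fell outside it and were not tested there. The 12 called in the control group became 19 with loess ratios, with or without background correction, and with quantile normalization, and 21 with scaled ratios or array weights. The 9 in the quercetin group became 4 with Cy5 alone and 15 with array weights. Quercetin minus control differences that turned sign, none of them past the threshold in any setting listed, were the following log2 values. With the fit without control replicate 5, Apoa2 -0.011 and Apob -0.002. With scaled loess ratios, Apoa5 -0.004, Apoe 0.495, Lipc -0.01 and Mttp 0.033. With Arntl as a covariate, Apoc2 0.029, Lipc -0.042 and Mttp 0.055. With the Cy5 channel alone, Apoc3 0.054, Apoc3 0.018, Apoe 0.016 and Pltp -0.029. With Feature Extraction's processed signals, Apoe 0 and Mttp 0.045. With quantile normalization, Apoe 0.024 and Mttp 0.018. With unsaturated spots, Apoe 0.026. With the fit without quercetin replicate 2, Apoe 0.002 and Mttp 0.01. With array weights, Apoe 0.023 and Mttp 0.077. With the fit without control replicate 1, Lipc -0.007 and Mttp 0.027. With loess ratios, Mttp 0.032. With loess ratios without background correction, Mttp 0.013 and Pltp -0.005. With slide as a block, Mttp 0.026. With array position as a term, Mttp 0.004. With the fit without both of these replicates, Mttp 0.003. With 1 of these libraries left out at a time, the values ranged from -0.011 to 0.142 for Apoa2, from -0.051 to 0.002 for Apoe, from -0.014 to 0.027 for Mttp and from -0.007 to 0.021 for Lipc. The causes were not tested. Median centring changed no value, since the columns already share a median. Dim probes close to background limit the low genes, such as Vldlr.

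The replicate numbers did not meet the limit for pairing, a correlation above 0.1 in every pair. The deviations of same-numbered quercetin and control mice correlated with a median of -0.01 over 12 pairs, 3 of them above 0.1. Against baseline the medians were 0.06 for control and 0.03 for quercetin mice, with 4 of 12 pairs above 0.1 in each and the highest at 0.36 and 0.28. With the replicate block, 0 member probes and 4 list genes passed between quercetin and control, 4 member probes and 13 list genes in the control group against baseline, and 6 and 9 in the quercetin group. Over all probes the 513 calls between quercetin and control became 360.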

Other observations

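Control replicate 5 carried the transcripts of the exocrine pancreas at Prss2 19.12, Cpa1 20.27, Pnlip 20.22, Cel 20.32 and Ctrb1 16.35 on the log2 scale. The other 35 livers reached at most 10.27, 10.71, 8.69, 10.06 and 9.95 for the same genes. Its apolipoprotein values were the lowest of the 12 control mice for 12 of 15 probes and among the 2 lowest for 14.

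The serum amyloid genes Saa1 and Saa2, apolipoproteins of the acute phase that ride on high density lipoproteins, were measured with wide spread. Their quercetin minus control differences were -0.03 (standard error 0.27) and -0.04 (standard error 0.29), and relative to baseline Saa1 gave -0.47 (standard error 0.22) in the control group and -0.49 (standard error 0.30) in the quercetin group, none past an adjusted p of 0.05 (limma). The remaining listed apolipoproteins Apoc4, Apof and Apoh also stayed below the threshold, with quercetin minus control differences of -0.04, -0.15 and -0.03.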
